A study of Mus musculus with 9 samples.

Results

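Lsp1, Plek, Gpr18 and Cd2 are genes of blood cells whose signal was seen to be much higher when IRF4 was put back into mouse pre-B cells that lacked it. They were chosen by that difference in measured intensity, IRF4 against high IL-7, so it is given here as a description, with no test. They make up 4 of the 18193 genes with a probe set of a single gene symbol on the array, and they are read by 6 probe sets, 3 of which belong to Plek. Total RNA was measured on 9 arrays. All 9 came from pre-B cells, the precursors that rearrange immunoglobulin light chains, with null alleles of both IRF4 and IRF8 (genotype IRF4,8 -/-). High IL-7 alone, low IL-7 and high IL-7 with IRF4 reintroduced had 3 arrays each, and the labels give the cytokine as 5 and 0.25 ng but disagree on the volume. The way IRF4 was put back, and the strain and age of the animals, are not given in the sources used here, and no group carries the means of delivery without IRF4. IRF4 and its delivery thus cannot be told apart. Whether replicate arrays stand for separate cultures is not stated in the labels, and p-values therefore measure the spread between arrays alone, which may be technical.

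The 4 genes act at the membrane and in the cytoskeleton beneath it. Lsp1 encodes a leukocyte protein that binds filamentous actin. Plek encodes pleckstrin, a substrate of protein kinase C with pleckstrin homology domains that bind phosphoinositides. Gpr18 encodes a G protein-coupled receptor of lymphocytes, and Cd2 an adhesion molecule of the immunoglobulin superfamily that binds CD48 in the mouse. In the B lineage CD2 is widely used as a surface marker of the pre-B stage and of the cells that follow. IRF4 is a transcription factor that binds DNA weakly by itself, and it joins ETS factors such as PU.1 and Spi-B, or AP-1 factors, at composite sites.

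The stretches of DNA just before the start of Gpr18 and Plek are shown because both genes were higher with IRF4 yet went opposite ways in low IL-7. The RefSeq promoter table (build GRCm38.p6) matched 2 of the 4 members, and Lsp1 and Cd2 are named only. Each sequence holds the 250 bases before the start, written 5′ to 3′ on the gene's own strand, and capitals mark a match to a searched motif.
Gpr18, chr14:121915889-121916138, minus strand: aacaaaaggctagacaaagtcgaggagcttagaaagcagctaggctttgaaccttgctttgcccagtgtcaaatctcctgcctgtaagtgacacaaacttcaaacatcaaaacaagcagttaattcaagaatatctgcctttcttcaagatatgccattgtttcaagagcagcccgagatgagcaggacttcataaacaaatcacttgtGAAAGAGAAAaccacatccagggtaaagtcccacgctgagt
Plek, chr11:17008719-17008968, minus strand: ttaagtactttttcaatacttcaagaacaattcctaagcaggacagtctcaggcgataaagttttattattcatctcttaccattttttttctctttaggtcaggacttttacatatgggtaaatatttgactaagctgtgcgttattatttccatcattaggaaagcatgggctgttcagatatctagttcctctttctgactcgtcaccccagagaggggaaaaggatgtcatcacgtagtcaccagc
The motifs searched, on both strands, were the ETS-IRF composite type (GGAA, any 2 bases, GAAA), the IRF and ISGF3 type (GAAA, any 2 bases, GAAA) and the AP-1 type (TGANTCA). No matches overlapped in the printed sequences. Gpr18 held 1 match, GAAAGAGAAA on the gene's strand, from 41 to 32 bases before the start. The IRF and ISGF3 motif occurred in 3.44% of the 32851 promoter windows in the table, each with 250 bases before and 50 after a start. Plek held 0 matches to any of the 3 motifs, and the ETS-IRF composite occurred in 2.72% and the AP-1 motif in 7.81% of windows. A match of letters is a description and not a binding site.

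Array medians lay between 139.7 and 151.3 intensity units, and replicates correlated with r from 0.976 to 0.995. Irf4 itself was read by 2 probe sets. The dimmer (1421174_at) stood at 381, 202 and 261 in high IL-7 replicates 1 to 3, at 316, 270 and 257 in low IL-7, and at 1088, 1379 and 2543 with IRF4, where all 3 arrays lay above the other 6 (2.45 on the log2 scale described below, limma adjusted p = 0.000861 over all probe sets). The brighter (1421173_at) went the other way, with 5791, 4719 and 4964 in high IL-7 and 3709, 3702 and 4256 with IRF4. It read 7926, 7902 and 7161 in low IL-7, 0.57 above high IL-7 (limma adjusted p = 0.000502 over all probe sets), and where either lies relative to the deleted part is not known. Of the 8 B cell markers looked up, 7 had a probe set and all 7 passed the filter on low values described below, with Cd79a, the signalling partner of the B cell receptor, at 4228 or more on every array. The sum of the highest probe set of 12 stromal genes was 4676 to 21366 in high IL-7, 2463 to 4948 in low IL-7 and 2632 to 15231 with IRF4, so the arrays of a group differed in it several-fold. Its part in the results was not tested.

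Lsp1, the actin-binding protein, had the widest difference of the 4. Its probe set (1417756_a_at) read 121, 224 and 139 intensity units in high IL-7 replicates 1 to 3. In low IL-7 it read 113, 142 and 118. With IRF4 it read 933, 2124 and 1652. The lowest IRF4 array lay above every other array, while the high and low IL-7 arrays overlapped. On the scale of log2(intensity + 16), used throughout because it damps noise in dim signal and so understates the change of dim genes, the means were 7.43 ± 0.42 (SD, n = 3), 7.13 ± 0.16 and 10.55 ± 0.60. IRF4 stood 3.13 above high IL-7, 8.72-fold on this scale, and 3.42 above low IL-7. Among 12828 tested genes this was rank 6 for a rise with IRF4. In bulk RNA, fewer cells of a type and less RNA per cell cannot be told apart.

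Plek, the kinase substrate, was read by 3 probe sets that ordered the groups alike. The brightest (1448748_at) read 202, 246 and 209 in high IL-7, 125, 110 and 127 in low IL-7, and 459, 830 and 673 with IRF4. Every low IL-7 array thus lay below every high IL-7 array, and every IRF4 array above. Its log2 means were 7.87 ± 0.14 (SD, n = 3), 7.09 ± 0.10 and 9.35 ± 0.42, which puts IRF4 1.48 (2.79-fold) above high IL-7 and 2.25 (4.77-fold) above low IL-7. The next probe set (1448749_at) read 140, 145 and 131, then 69.4, 74.4 and 69.7, then 244, 466 and 418. The dimmest (1417523_at) read 117, 137 and 149, then 98.1, 112 and 105, then 167, 265 and 248. In both, the 3 groups were again fully separate in the same order, low IL-7, high IL-7, IRF4. The sizes differed: IRF4 stood 1.29 above high IL-7 on the second and 0.67 on the dimmest.

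Gpr18, the receptor, had 3 separate levels, with low IL-7 in the middle. Its probe set (1439141_at) read 50.9, 52.7 and 50.6 in high IL-7, 167, 152 and 162 in low IL-7, and 262, 529 and 437 with IRF4. The high IL-7 arrays lay below all others, and the low IL-7 arrays lay between them and the IRF4 arrays with no overlap. The log2 means were 6.07 ± 0.02 (SD, n = 3), 7.46 ± 0.06 and 8.68 ± 0.50. IRF4 stood 2.60 above high IL-7 (6.08-fold, rank 12 of the tested genes) and 1.21 (2.32-fold) above low IL-7. All high IL-7 values lay below the filter of 108 intensity units, and no detection call was used here, so a level above background in that group is not known and the size of the difference depends on the added 16. With 64 in place of 16 the difference was 1.99.

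Cd2, the adhesion molecule, had the smallest difference of the 4 genes. It read 104, 128 and 129 in high IL-7, 135, 138 and 140 in low IL-7, and 298, 290 and 191 with IRF4 (probe set 1418770_at). The 3 groups did not overlap, though high IL-7 and low IL-7 lay close together, with 128.5 as the highest value of one and 135 as the lowest of the other. The log2 means were 7.08 ± 0.15 (SD, n = 3), 7.26 ± 0.02 and 8.08 ± 0.34. IRF4 stood 0.998 above high IL-7 (1.997-fold, rank 96) and 0.82 above low IL-7. Plek was at rank 42.

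**Figure D1:**
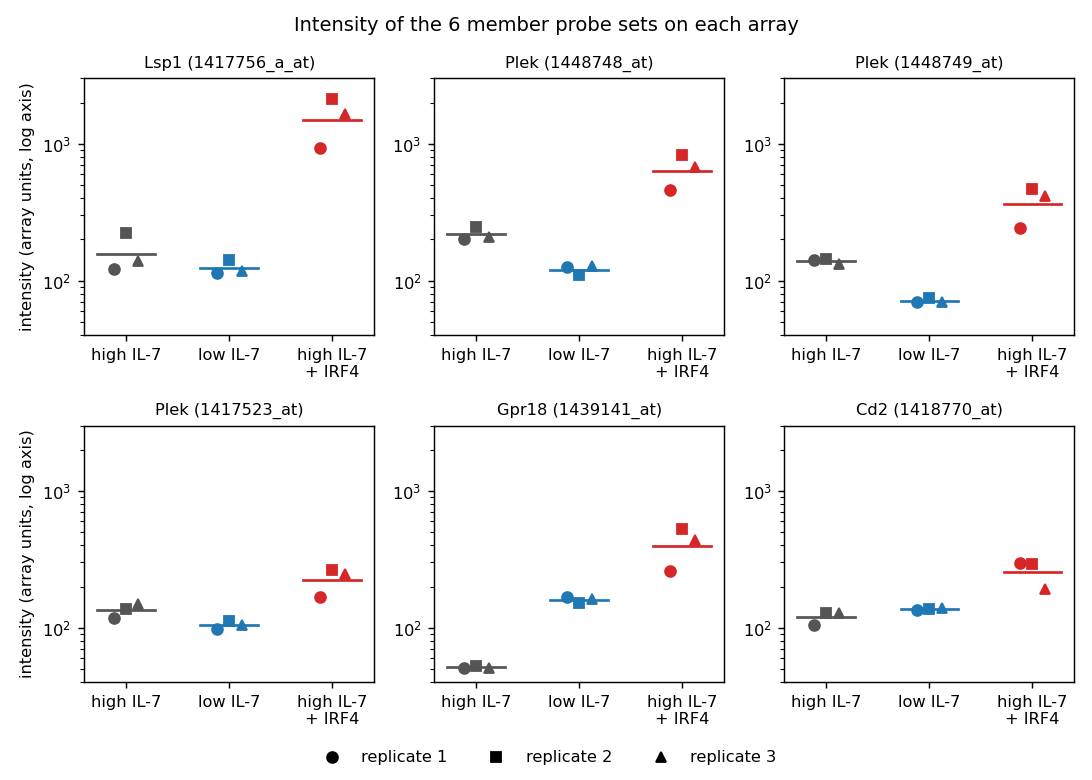
Intensity of each member probe set on each array, on a log axis in array units, for high IL-7, low IL-7 and high IL-7 with IRF4. Symbols mark the replicate number and lines the mean taken on the log2(intensity + 16) scale. IRF4 arrays are the highest in every panel, and the low IL-7 arrays are below high IL-7 for Plek (110 to 127 against 202 to 246 on the brightest probe set) and above it for Gpr18 (152 to 167 against 50.6 to 52.7).

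The IRF4 arrays did not rank the members alike. IRF4 replicate 1 was the lowest of the 3 for Lsp1, for Gpr18 and for all Plek probe sets, and replicate 2 the highest. For Cd2, replicate 1 was the highest at 298 and replicate 3 the lowest at 191. The dimmer Irf4 probe set followed neither order, with replicate 3 highest at 2543 and replicate 1 lowest at 1088. Without IRF4 replicate 1 the difference from high IL-7 was 3.46 for Lsp1, 1.71 for Plek and 2.88 for Gpr18, and 0.89 for Cd2. All 3 IRF4 arrays lay above all high IL-7 arrays for 10% of tested genes and below them for 11%, and above for all 4 members, which their choice fixes. Against low IL-7 the IRF4 arrays were all above for the 4 members too. The choice of members for high values on these IRF4 arrays favours that, and nothing is read from it beside the 24.6% of tested genes all above and 23.6% all below.

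The comparison of low with high IL-7 asks how the genes respond when the cytokine falls with IRF4 still missing. It was not used to pick the members, but it shares the high IL-7 arrays with the one that was, and low values on those arrays favour a rise in both. Gpr18 rose by 1.39 (SE 0.19, limma adjusted p = 0.000257), in 3 of 3 arrays. It passed the filter only through the IRF4 arrays, having a mean of 106 against 108 without them, and over all probe sets with no filter its limma adjusted p was 0.000237. Its high IL-7 values lie under the filter, so the size of the rise is uncertain, from 0.96 with 64 added to 1.57 with 4. Plek fell by 0.78 (SE 0.18, 1.71-fold lower, limma adjusted p = 0.00583), in 3 of 3 arrays. Of all tested genes 17.8% rose and 19.6% fell, 37.4% in all, so 1 of 4 members rising and 1 of 4 falling is near the background. Both calls kept their side of the threshold in every alternative run on the same probe sets, with adjusted p of at most 0.00181 for Gpr18 and 0.0265 for Plek without 1 array. Gpr18 had no value under a stricter filter, which it did not pass.

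The other Plek probe sets were fitted over all probe sets of the array. The second changed by -0.83 (SE 0.18, limma adjusted p = 0.00574). Its low IL-7 values of 69.4 to 74.4 lie under the filter of 108 units, so the size of this fall is uncertain. The dimmest changed by -0.31 (SE 0.15, limma adjusted p = 0.163) and did not pass, although its 3 low IL-7 arrays lay below its high IL-7 arrays. Low IL-7 arrays lay all below those of high IL-7 for 24.8% of tested genes and all above for 25.5%.

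Lsp1 and Cd2 did not pass in low IL-7. Lsp1 changed by -0.30 (95% interval -0.92 to 0.32, limma adjusted p = 0.448), and without high IL-7 replicate 2, its highest array at 224, by -0.06. Cd2 changed by 0.18 (95% interval -0.15 to 0.51, limma adjusted p = 0.384), although its low IL-7 arrays all lay above those of high IL-7. Both intervals hold changes in either direction, so the values do not show that the genes kept their level.

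**Figure D2:**
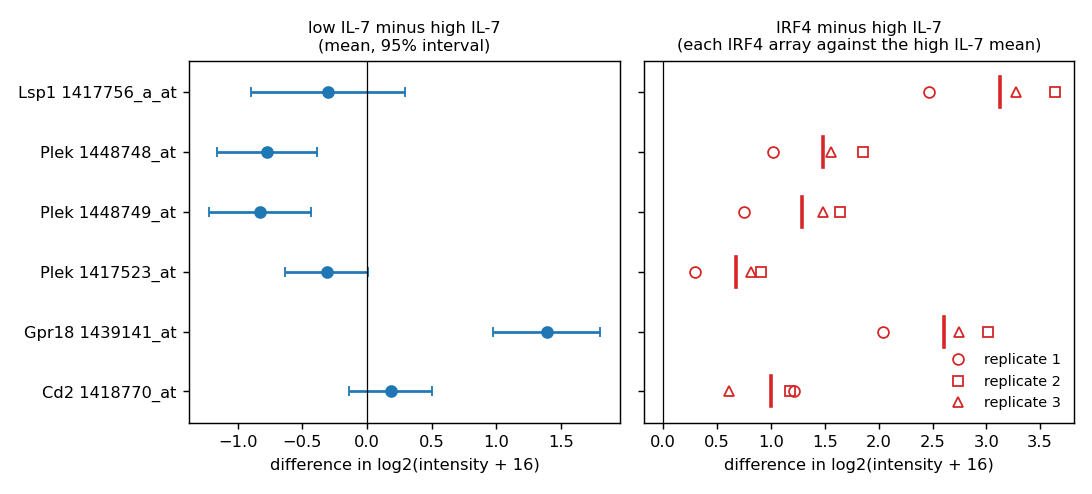
Left, the difference of low IL-7 from high IL-7 for each member probe set in log2(intensity + 16), with the mean and its 95% interval from limma over all probe sets. Right, each IRF4 array against the high IL-7 mean, with a line at their mean. The intervals of Gpr18 (mean 1.39) and of the brighter Plek probe sets (means -0.78 and -0.83) leave out 0, those of Lsp1 (-0.30), Cd2 (0.18) and the dimmest Plek probe set (-0.31) do not.

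The genes next to each member on its chromosome were read to see whether they moved with it. The members were chosen for a wide difference with IRF4 and the neighbours by position. A gap between them in that contrast is thus built into the choice, and nothing is read from it. The RefSeq gene table was used for their order alone, taking the nearest 2 on each side with a probe set. Of these 16 neighbours, 12 passed the filter, and with IRF4 none of the 12 was called by limma, with 1 at an unadjusted p under 0.05. At the adjusted threshold 1.89% of all tested genes rose and 0.951% fell with IRF4, 2.85% in all. No share of all genes at an unadjusted p is given here. The neighbours' differences from high IL-7 ran from -0.34 (Dock9) to 0.40 (Egfr, the epidermal growth factor receptor). Gpr183, a receptor for oxysterols that guides B cells and lies beside Gpr18, changed by 0.20 (SE 0.12, limma adjusted p = 0.481). Ubac2, whose bounds in the table contain those of Gpr18, changed by 0.15 (limma adjusted p = 0.38). Around Lsp1, Tnni2, a troponin, changed by 0.06 and Mrpl23, a mitochondrial ribosomal protein, by -0.13. Around Cd2, Ptgfrn changed by 0.06 and Igsf3 by -0.08.

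In low IL-7, 2 of the 12 neighbours rose and 3 fell, near the 17.8% and 19.6% of all tested genes. Dock9, a guanine nucleotide exchange factor for CDC42 near Gpr18, rose by 1.55 (SE 0.23, limma adjusted p = 0.00041), and 2 more of its 5 probe sets gave 1.59 and 1.64 while the 2 dimmest gave 0.20 and -0.04. Between Dock9 and Gpr18 in the table, Ubac2 changed by 0.19 (limma adjusted p = 0.0659), and Gpr183 on the far side by 0.19 (limma adjusted p = 0.264). Egfr, near Plek, rose by 0.64 (limma adjusted p = 0.00146) on its brightest probe set, while 6 dimmer ones gave -0.56 to 0.06. Ppp3r1, a calcineurin subunit on the other side of Plek, fell by 0.41 (limma adjusted p = 0.00599), and Mrpl23 near Lsp1 fell by 0.74 (limma adjusted p = 0.000104). Tnni2 fell by 0.44 (limma adjusted p = 0.0416), a call lost when replicate 2 or 3 of high IL-7, or 1 or 3 of low IL-7, was left out (limma adjusted p up to 0.135). That was its brightest probe set, which over all probe sets had limma adjusted p = 0.0544. In the same fit the next Tnni2 probe set changed by -0.76 (limma adjusted p = 0.000975) and the dimmest by 0.01.

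**Figure D3:**
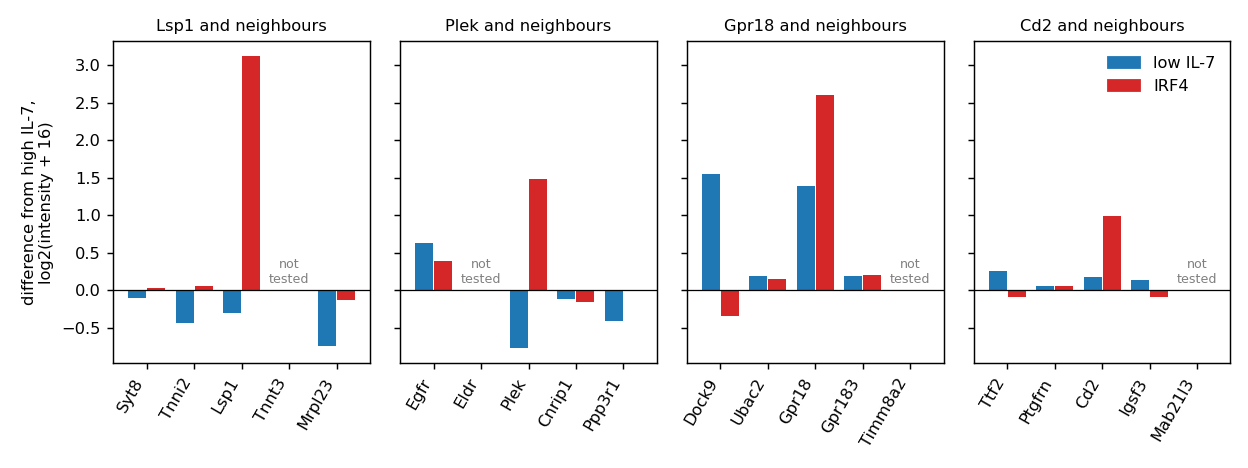
Difference from high IL-7 in log2(intensity + 16) for each member and its nearest measured genes, in the order of the RefSeq table, in low IL-7 (blue) and with IRF4 (red). The members, chosen by this difference, stand at 3.13 (Lsp1), 1.48 (Plek), 2.60 (Gpr18) and 0.998 (Cd2) with IRF4. Their tested neighbours, chosen by position, lie between -0.34 and 0.40, and 4 neighbours below the filter have no bar.

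For each member the 5 genes with the most similar pattern were listed, by Pearson r over the 9 arrays. The arrays share the 3 conditions, and every gene listed was higher with IRF4, so r mostly reflects the group means and is a description. The low IL-7 arrays entered r, so a like position in low IL-7 is favoured by the choice and nothing is read from it. Nearest to Lsp1 were Cd74, the invariant chain of MHC class II (r = 0.989), Cd36, a scavenger receptor (0.987), B3gnt5, a glycosyltransferase (0.986), Rnase6, a ribonuclease (0.986), and Pld4, an endosomal exonuclease (0.986). These 5 stood 1.28 (B3gnt5) to 4.02 (Cd36) above high IL-7 with IRF4 and -0.59 (Cd74) to -0.06 (Rnase6) from it in low IL-7. Cd36 was dim in high IL-7, with a log2 mean of 5.27, and its difference with IRF4 was 2.96 with 64 added in place of 16. Nearest to Plek were Sub1, a transcription coactivator (0.993), Nucb2, a calcium-binding protein (0.987), Cd52, a small surface glycoprotein (0.977), Necap2, an endocytosis protein (0.977), and Ctss, a lysosomal protease (0.977). All 5 had lower means in low IL-7 than in high IL-7, from -0.72 (Ctss) to -0.10 (Sub1), as the choice by r favours. Only Nucb2 and Ctss were called there (limma adjusted p = 0.00239 and 0.00186).

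The genes nearest to Gpr18 had intermediate means in low IL-7, as Gpr18 did, which the choice by r over all arrays favours. They were Il12a, a subunit of interleukin 12 (r = 0.983), Spib, the ETS factor Spi-B (0.979), Ikzf1, which encodes Ikaros (0.976), Blvrb, a biliverdin reductase (0.976), and Mctp2 (0.973). Their differences from high IL-7 were 0.47 (Ikzf1) to 1.29 (Il12a) in low IL-7 and 0.74 (Ikzf1) to 2.04 (Il12a) with IRF4. Nearest to Cd2 were Iqcb1 (r = 0.986), Tmem229b (0.979), H3c7, a histone H3 gene (0.976), Ell2, an elongation factor (0.962), and Prkce, a protein kinase C (0.959), which stood 0.34 (Iqcb1) to 1.69 (Ell2) above high IL-7 with IRF4. By Spearman's rho, the 5 most similar genes shared 0 with these lists for Lsp1, Plek and Gpr18 and 1 for Cd2, so the order of similarity depends on the measure.

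Other genes of the members' pathways were read from 5 lists, none of which holds a member. They are described by counts and medians, with no test of a list, and both comparisons use the same high IL-7 arrays. Of all tested genes, 1.89% were called higher and 0.951% lower with IRF4, and 17.8% higher and 19.6% lower in low IL-7. These shares are at an adjusted p under 0.05 and belong only beside the counts called at that threshold. For counts at an unadjusted p under 0.05 no share of all genes is given, so nothing is read from those counts. Leukocyte actin regulators, the company of Lsp1, held 30 tested genes of which 2 rose and none fell with IRF4 (9 and 1 at an unadjusted p under 0.05). They were Tmsb4x, which binds actin monomers (0.42, SE 0.07, limma adjusted p = 0.00629), and Wasf2, a driver of actin branching (0.32, SE 0.07, limma adjusted p = 0.0346). The call of Wasf2 was lost on leaving out any 1 array of high IL-7, replicate 2 or 3 of low IL-7, or replicate 2 with IRF4 (limma adjusted p up to 0.149). The share that rose over all tested genes was 1.89%, and the median of the list was 0.14, against -0.01 for all genes. With the replicate number as a block, 4 of the 30 rose and 1 fell with IRF4. In low IL-7, 10 of the 30 rose, against 17.8% of all genes, and 3 fell, 1 without low IL-7 replicate 3, with a median of 0.14 against 0.02 for all genes. Gsn, which severs actin filaments, rose by 1.05 (SE 0.12), Arpc5 by 0.58, Wasf2 by 0.57 and Tmsb4x by 0.51.

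Of 19 genes around protein kinase C, the kinase family that phosphorylates pleckstrin, 3 rose with IRF4, against 1.89% of all genes, and none fell (5 and 1 at an unadjusted p under 0.05). Prkce rose by 0.98 (SE 0.10, limma adjusted p = 0.000331) and Prkcb by 0.89 (SE 0.10, limma adjusted p = 0.000656). Rasgrp1, a diacylglycerol-binding exchange factor for Ras, rose by 1.69 (SE 0.32, limma adjusted p = 0.0184), a call lost when replicate 1 or 3 of high IL-7, or 2 or 3 with IRF4, was left out (limma adjusted p up to 0.0788). In low IL-7, where Plek fell, 9 of the 19 rose and 1 fell, against 17.8% and 19.6% of all genes. With the replicate number as a block 2 fell. Marcks, another kinase C substrate, rose by 1.66 (SE 0.26), Prkcb by 1.48 (SE 0.10), Dgka by 1.06 and Marcksl1 by 0.48. The list medians were 0.02 with IRF4 and 0.38 in low IL-7, against -0.01 and 0.02 for all genes.

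Receptors for lipids and orphan receptors of lymphocytes, the company of Gpr18, held 12 tested genes. With IRF4, 2 rose, against 1.89% of all genes, and none fell (3 and 1 at an unadjusted p under 0.05). S1pr1, the receptor by which lymphocytes leave tissues, rose by 0.59 (SE 0.10, limma adjusted p = 0.00798), but not without high IL-7 replicate 3 (limma adjusted p = 0.0505). Gpr171, an orphan receptor, rose by 2.37 (SE 0.50, limma adjusted p = 0.0341), a call lost when replicate 1 or 3 of high IL-7, 2 of low IL-7, or 2 or 3 with IRF4 was left out (limma adjusted p up to 0.135). In low IL-7, 4 rose, against 17.8% of all genes, and none fell, with the same counts at an unadjusted p under 0.05 by limma: S1pr1 by 1.21 (SE 0.10), Ptger4 by 1.38, Lpar6 by 1.05 and Gpr171 by 1.56. Gpr171 did not pass when replicate 1 or 3 of high IL-7, or 2 or 3 of low IL-7, was left out (limma adjusted p up to 0.131). The medians were 0.07 with IRF4 and 0.16 in low IL-7.

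In the family of CD2 and the related SLAM receptors with their adaptors, 2 of 11 tested genes rose with IRF4, against 1.89% of all genes, and none fell (4 and 1 at an unadjusted p under 0.05). Cd48, which encodes the ligand of CD2 in the mouse, rose by 0.93 (SE 0.15, limma adjusted p = 0.00741), from 10.35 in high IL-7 and 10.35 in low IL-7 to 11.27. Slamf9 rose by 0.86 (SE 0.13, limma adjusted p = 0.00522). In low IL-7, 3 rose and 3 fell, near the background of 17.8% and 19.6%. Slamf7 rose by 1.33 (SE 0.11), Sh3kbp1 by 0.93 and Slamf6 by 0.89, and Ly9 fell by 0.45. Cd48 changed by 0.00 there (SE 0.15, limma adjusted p = 0.986). The medians were 0.21 with IRF4 and 0.00 in low IL-7.

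Surface markers used to stage B cell precursors, among which CD2 is counted, held 14 tested genes of which 4 rose and 1 fell with IRF4, against 1.89% and 0.951% of all genes. Il2ra and Fcer2a of this list did not pass the filter and were not tested. Il2ra read 131 to 269 with IRF4 on its brighter probe set and 97.8 to 163 on the dimmer. Its medians over all arrays were 58.7 and 81.4. With no filter, 5 genes of the list rose with IRF4. Ly6d, a marker of B-committed progenitors, rose by 2.15 (SE 0.18, limma adjusted p = 9.02e-05) and Cd93 by 1.70 (SE 0.13, limma adjusted p = 6.27e-05). Cd22, an inhibitory coreceptor, rose by 0.64 (SE 0.11, limma adjusted p = 0.0104), but not without high IL-7 replicate 3 or IRF4 replicate 2 (limma adjusted p up to 0.0566). Cd79b rose by 0.47, but not without IRF4 replicate 2 (limma adjusted p = 0.0643), and Cd72 fell by 0.51. In low IL-7, 8 rose, against 17.8% of all genes, and none fell (1 with the replicate number as a block), with the same counts at an unadjusted p under 0.05 by limma, among them Cd93 at 2.52 (SE 0.13), Cd72 at 1.13, Cd79b at 0.80 and Cd24a at 0.26. The medians were 0.18 with IRF4 and 0.34 in low IL-7.

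**Figure D4:**
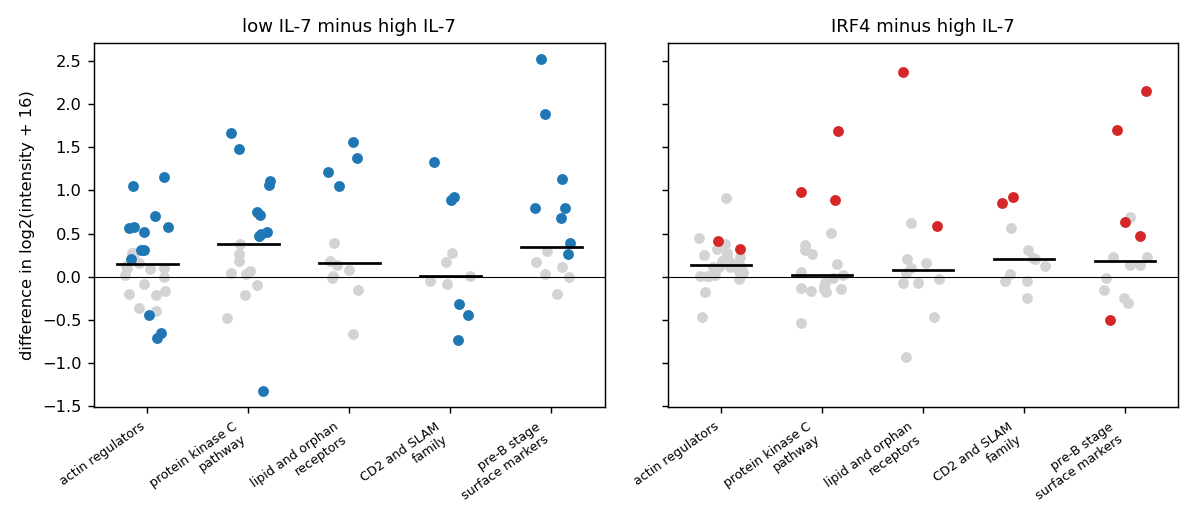
Difference from high IL-7 in log2(intensity + 16) for each tested gene of 5 lists around the members, in low IL-7 (left) and with IRF4 (right). Coloured points passed limma's adjusted p of 0.05, gray points did not, and bars mark medians. With IRF4 the coloured points number 2, 3, 2, 2 and 5 from left to right.

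Lsp1, Plek, Gpr18 and Cd2 are also known from T cells, natural killer cells, platelets and myeloid cells, so markers of these were read on the same arrays. With IRF4, limma called none of 7 tested T cell markers, none of 4 natural killer markers and none of 6 platelet markers. At an unadjusted p under 0.05 by limma, 2 T cell markers were lower and none higher. No natural killer marker passed at that level, and 1 platelet marker was higher. The share of all genes at that level is not given, so nothing is read from these counts. With the replicate number as a block, 1 T cell marker fell. Summed intensities with IRF4 were 2891 to 3429 for T cell markers, against 3361 to 4223 in high IL-7. They were 788 to 936 for natural killer markers (against 834 to 892) and 1759 to 1995 for platelet markers (against 1614 to 1863). Among the chains of the T cell receptor complex, Cd3e read 137 to 184 with IRF4, Cd3d 72.9 to 94.9 and Cd3g 13.5 to 24.0. The brightest T cell markers were Zap70, a kinase, at 732 to 1055 on its brightest probe set, and Thy1 at 726 to 817. The dimmer Zap70 probe sets read 336 to 372 and 144 to 197 with IRF4. Their medians over all arrays were higher, at 847 and 466. Only the brightest probe set of a gene was tested, so these lower values were not. The myeloid list read 3609 to 4131 with IRF4 against 2429 to 2894 in high IL-7. Of its 8 tested genes Ctss rose by 1.29 (SE 0.14, limma adjusted p = 0.000441) and Fcer1g fell by 1.40 (SE 0.18, limma adjusted p = 0.00181). Without Ctss, which B cells also make, the list read 1354 to 1540 against 1588 to 1809. Without both Ctss and Fcer1g it read 1214 to 1382 against 1236 to 1308, and the groups overlapped. These were the only genes of the list called with IRF4, so leaving them out favours overlap, and nothing is read from it. Among defining myeloid markers, Csf1r, the receptor for a macrophage growth factor, read 390 to 481 with IRF4 on its brightest probe set, Lyz2 119 to 129, Mpo 94.5 to 108 and Csf3r 34.4 to 37.9. The part of these cells in the members' values was not tested.

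In low IL-7 the same lists held a few calls. Among myeloid markers Itgam, an integrin chain, rose by 2.01 (SE 0.17), Fcer1g rose by 1.49 and Ctss fell by 0.72. Among natural killer markers Eomes fell by 0.58 and Prf1 rose by 0.38, but Prf1 did not pass when replicate 1 or 3 of high IL-7, or 2 or 3 of low IL-7, was left out (limma adjusted p up to 0.0721). Of the T cell markers none rose (1 with the replicate number as a block, and 1 at an unadjusted p under 0.05 by limma) and 1, Thy1, fell by 0.37, a call lost when replicate 1 or 2 of high IL-7, 2 or 3 of low IL-7, or 2 with IRF4 was left out (limma adjusted p up to 0.158). Of the platelet markers 1, Pf4, fell by 0.32, a call lost without high IL-7 replicate 3 (limma adjusted p = 0.0563). Of 10 stromal genes 3 fell, Col3a1, Pdgfra and Col6a1, a count that one array could set. It was 8 when replicate 1 of high IL-7 was left out, 0 for replicate 2 or 3 of high IL-7 or 1 or 3 of low IL-7, 1 for replicate 2 of low IL-7 and 5 for IRF4 replicate 1. With the replicate number as a block it was 1, Pdgfra, as Col3a1 (limma adjusted p = 0.0565) and Col6a1 (limma adjusted p = 0.0766) did not pass. None of the 10 was called with IRF4 by limma (none at an unadjusted p under 0.05), with a median of -1.06. Of 7 B cell markers 4 rose in low IL-7, among them Blnk, an adaptor of the pre-B cell receptor, at 1.42 (SE 0.06), and 1, Cd79b, rose with IRF4. None fell with IRF4, and 1 did with the replicate number as a block.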

How the data were processed

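Linear intensities as deposited by the authors covered 45101 probe sets on each array. The sources used here do not give their summarisation or scaling. Groups and replicate numbers came from the sample titles. Gene names came from the platform annotation, which gave 1 symbol for 34945 probe sets, several for 932 and no symbol for 9160, and 64 were controls.

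Values were taken as log2(intensity + 16) with no added normalization. Genes were kept at or above the 40th percentile of probe set means (108 units), with the brightest probe set per gene. All 6 member probe sets passed, but Gpr18 (mean 106 without the IRF4 arrays) and Plek probe set 1448749_at would not have without those arrays. That Plek probe set had means of 139 in high IL-7 and 71.2 in low IL-7. limma 3.58.1 in R 4.3.3 fitted the 3 groups over all 9 arrays with a variance trend, and p-values were adjusted over 12828 genes by Benjamini-Hochberg, with calls under 0.05. The procedure was tested on simulated data. Figures used matplotlib 3.10.9 in Python 3.11.15. The members, the 11 gene lists and the tests were chosen with earlier results of these data known. Genes named are the members, their chromosomal neighbours, the leading called genes of each list, the genes most alike each member and those ranked beside it. Further surface and cell type markers are named for their values. No batch label was at hand. In their deviations from the group means, same-numbered high and low IL-7 arrays correlated with r of 0.549, 0.386 and 0.286. Differently numbered high and low IL-7 arrays had r from -0.520 to 0.342. With the IRF4 arrays included, differently numbered arrays of different groups had r from -0.520 to 0.399. No label states a pairing, so whether arrays were paired is not settled. The replicate number was therefore used as a block in an alternative fit only. The fit without the block is the one reported. Blocked values are given where a named gene lost its call or a list count moved past its set limit. Same-numbered IRF4 arrays correlated at -0.38 to -0.16 with high IL-7 and were not taken as paired.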

Additional observations from a re-analysis of the deposited data

How the results depend on the processing

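Over 167 results and 2553 alternative values, 2408 kept their direction and their side of the threshold or stayed within the limit set for them, 79 lost a call, 66 moved and none reversed. Apart from Lsp1 and Cd2 in low IL-7, which gained no call, every tested gene followed was already called. A gained call therefore could not show for other genes, except as a higher count. Members: Gpr18 stood 1.99 above high IL-7 with IRF4 at a pseudocount of 64 (2.84 at 4), and the dimmest Plek probe set gave -0.31 in low IL-7 (limma adjusted p = 0.163). Leaving out 1 array each gave 195 to 605 genes called with IRF4 against 365, lowest without IRF4 replicate 2 or high IL-7 replicate 3 (203) and highest without IRF4 replicate 1, and 11 to 25 list genes against 16. With the replicate number as a block, Plek kept -0.78 (limma adjusted p = 0.00649) and Gpr18 1.39 (limma adjusted p = 0.00068) in low IL-7, and 428 genes were called with IRF4 and 4926 in low IL-7, against 4801. The block changed no call of a member, and in low IL-7 no call of another gene followed except Col3a1 and Col6a1. Among the most similar genes, Spearman's rho shared 0 with the listed 5 for Lsp1, Plek and Gpr18 and 1 for Cd2. In windows of the 250 bases before the start only, the motif shares were 2.30% (ETS-IRF composite), 2.98% (IRF and ISGF3) and 6.75% (AP-1), since these windows are shorter. Gpr18 and Cd2 had no value with the filter at the 60th percentile, which they did not pass. With 3 arrays a group and no detection calls, levels under about 108 units cannot be told from background.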

Other observations

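The genes ranked beside each member by the IRF4 difference were a mixed set in low IL-7, and are given as values with no explanation. Sizes of genes that are dim in a group depend on the added 16. Beside Lsp1 stood Cybb, a subunit of the phagocyte oxidase (3.54 with IRF4, 0.04 in low IL-7), and Ms4a1, which encodes CD20 (2.97 with IRF4, -2.69 in low IL-7). Beside Gpr18 stood H2-Aa, an MHC class II chain (2.85 and 0.27), and Fcrla, a B cell protein related to Fc receptors (2.68 and 1.47). Beside Plek stood Ccr7, a chemokine receptor that leads lymphocytes to lymph nodes (1.47 and -0.08), and Eps8, an actin capping protein (1.46 and 1.52). Beside Cd2 stood Lgr5, a receptor of the Wnt pathway (1.003 and 3.13), Mef2c, a transcription factor (0.99 and 0.91), and Syk, a kinase of the B cell receptor (0.98 and 1.01).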
